A study of Mus musculus with 12 samples.

Results

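The response of LOXL2-knockdown mouse embryonic stem (ES) cells to retinoic acid (RA) was measured as the difference between 3 arrays of cells treated with RA at day 1 and 3 arrays of the same cells without RA at day 0. These 6 arrays, chosen by their labels, are part of a set of 12. All 12 came from E14, an established mouse ES cell line, that had been transduced with a short hairpin RNA. In the 6 arrays described here the hairpin was shLOXL2, against the lysyl oxidase-like enzyme LOXL2. The other 6 arrays carried the control hairpin shCT, again with 3 arrays without RA at day 0 and 3 with RA at day 1. The labels give the treatment only as RA, which is read here as retinoic acid. No dose is given, and the labels do not say whether each hairpin line was a clone or a pool. No group was kept without RA until day 1, so RA and a day of culture cannot be told apart, and "with RA" below stands for both. The labels do not state whether replicate arrays were hybridised with RNA of separate cultures. The p-values therefore reflect the variation among these arrays alone, and that variation may be technical.

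RA is made from vitamin A and acts as the ligand of nuclear receptors, the RARs, which bind DNA together with RXRs and switch nearby genes on. In ES cells it drives exit from pluripotency, and the genes known to answer it early include the enzymes that destroy RA, the receptor RARB and the anterior Hox genes. LOXL2 belongs to the lysyl oxidase family, whose members oxidise lysine side chains of proteins.

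Total RNA was hybridised to Affymetrix whole-transcript arrays, and each value is a log2 signal, on which a difference of 1 is a 2-fold change. Values ran from 0.567 to 13.778, and the array medians lay between 4.58 and 4.68. Correlations over all transcript clusters were 0.953 to 0.984 among the 6 shLOXL2 arrays. Changes are given as RA minus no RA with their standard error from limma, a linear model with a moderated variance that was fitted to 22180 genes, with 3 arrays in each group. A gene was said to have risen or fallen where the Benjamini-Hochberg adjusted p was below 0.05 over all genes. For the single genes named below, that call held in all 6 fits that left out 1 shLOXL2 array, unless the arrays without which it was lost are given.

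The hairpin's target was read by a pair of transcript clusters, both of which the annotation also assigns to the predicted gene Gm21451, so its reads cannot be separated from that copy. In the first cluster the shLOXL2 arrays averaged 4.94 ± 0.14 without RA and 5.18 ± 0.105 with RA (SD, n = 3), or 67.5% and 53.4% of the control level. The other cluster averaged 4.77 ± 0.232 without RA and 4.796 ± 0.228 with RA (SD, n = 3), or 89.6% and 47.2% of control. The shCT arrays averaged 5.503 ± 0.295 without RA and 6.088 ± 0.368 with RA in the first cluster (SD, n = 3). In the other they averaged 4.925 ± 0.344 and 5.879 ± 0.349. The lower percentages with RA thus go with a higher control signal, while the shLOXL2 means did not fall. Exact 2-sided permutation tests of shLOXL2 against shCT gave p = 0.1 for the first cluster on both days and for the other on day 1, the smallest value that 3 arrays against 3 can give, and p = 0.6 for the other on day 0. Between the arrays with and without RA of the shLOXL2 cells neither cluster passed the test (adjusted p = 0.77 and 0.985 in limma).

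ES-cell markers were read well above the array medians on both days. The mean log2 signal of 10 ES-cell markers, among them Pou5f1, Sox2, Nanog and Utf1, was 9.38 to 9.53 in the arrays without RA and 9.05 to 9.08 in those with RA. Markers of fibroblasts, the usual feeder cells, averaged 4.69 to 4.77 and 4.53 to 4.85 over 15 genes, close to the array medians. Of those 15 genes Pdgfrb rose and none fell, and the collagen genes Col1a1, Col1a2 and Col3a1 changed by -0.08, -0.21 and -0.09, which did not pass the test. Markers of blood and endothelial cells averaged 5.08 to 5.27 without RA and 4.86 to 5.04 with RA over 10 genes.

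In the shLOXL2 cells 768 of 22180 genes (3.46%) changed with RA. Of these, 455 (2.05% of the genes tested) rose and 313 (1.41%) fell, so that 59.2% of the changes were rises. This split moved with the scaling: with each array centred on its median 47.1% of 782 changed genes were rises, and after a further quantile normalization 53.3% of 749. The median rise was 0.81 and the median fall -0.78, against a median change of -0.01 over all genes. A rise above 1 was seen for 134 genes and a fall beyond -1 for 86, while 18 rose by more than 2 and 3 fell by more than 2. For all 768 genes the 3 arrays with RA and the 3 without did not overlap, as they did not for 19.6% of the genes tested. Of the 768 genes, 732 are protein coding, 19 are long noncoding RNA genes and 11 are microRNA genes. Because the array numbers were taken to pair the shLOXL2 samples, the fit with the number as a block is given too: it called 1624 genes (7.32%), 985 up (4.44%) and 639 down (2.88%), including all 768. List counts below stand against these shares of all genes: 2.05% up and 1.41% down, or 4.44% and 2.88% with the block. Leaving out 1 array gave 461 genes without no-RA array 2, 488 without no-RA array 3, 511 without RA array 2, 444 without RA array 3, 536 without RA array 1 and 804 without no-RA array 1. Leaving out both arrays numbered 1, an alternative chosen after seeing the data, gave 488 genes, of which 415 were among the 768.

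**Figure D1:**
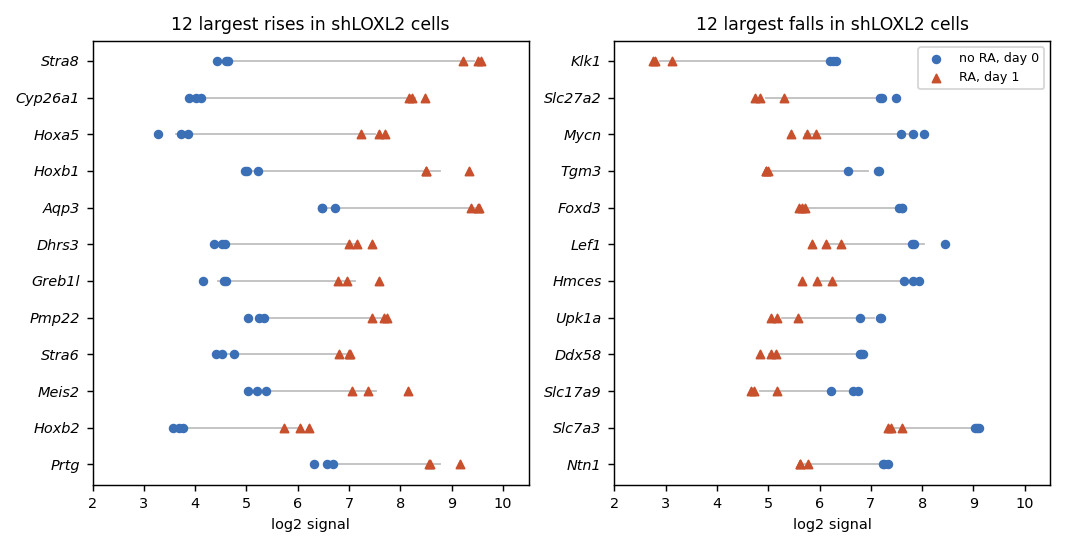
Log2 signal (horizontal axes) of the 12 genes with the largest rises (left) and the 12 with the largest falls (right) in shLOXL2 cells, leaving out predicted and numbered symbols. Each circle is an array without RA at day 0 and each triangle an array with RA at day 1, and a grey line joins the means of the 3 arrays. The circles and triangles of every gene are apart, from Stra8, which moved up from between 4.43 and 4.64 to between 9.22 and 9.58, to Ntn1, which moved down from between 7.24 and 7.34 to between 5.62 and 5.78.

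The genes that handle RA itself were among those that rose most. Of 31 measured genes for retinoid enzymes, carriers and transporters 5 rose (16.1%, against 2.05% of all genes) and none fell. The median change of the list was 0.09. Cyp26a1, the enzyme that oxidises and so inactivates RA, read 4.11, 3.88 and 4.01 in the 3 arrays without RA and 8.23, 8.17 and 8.48 in the 3 with RA. The 2 sets of arrays lay far apart, a rise of 4.29 ± 0.16 or 19.6-fold (adjusted p = 5.69e-09). Dhrs3, which reduces retinaldehyde back to retinol, went from 4.58, 4.37 and 4.53 to 7.44, 7.16 and 6.99, a rise of 2.71 ± 0.15. Stra6, the membrane receptor through which cells take up retinol from its plasma carrier, went from 4.76, 4.52 and 4.41 to 7.02, 7.01 and 6.80, a rise of 2.38 ± 0.20. All 3 arrays with RA read above all 3 without for both genes. Crabp2, which carries RA to its receptors in the nucleus, rose by 1.74 ± 0.17. Cyp26b1, a sister enzyme of Cyp26a1, rose by 0.63 ± 0.15 (adjusted p = 0.0383), and this call held only in the fit without RA array 1 among the 6 fits without 1 array, with an adjusted p of 0.17 without RA array 3. The genes that make RA did not pass the test: the retinol dehydrogenase Rdh10 changed by 0.39 and the retinaldehyde dehydrogenase Aldh1a2 by 0.13. Crabp1, the cytoplasmic RA carrier, changed by -0.20 (adjusted p = 0.761).

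Among 14 genes for retinoid receptors and coregulators 2 rose (14.3%, against 2.05% of all genes) and none fell, with a median change of 0.09. Rarb, the RA receptor beta, read 3.72, 3.83 and 3.49 without RA and 5.49, 5.25 and 5.62 with RA, a rise of 1.78 ± 0.14 (adjusted p = 1.07e-05). Nrip1, a corepressor that binds ligand-bound nuclear receptors, read 5.64, 5.06 and 5.12 without RA and 8.11, 7.11 and 7.33 with RA, a rise of 2.24 ± 0.27. Array 1 was the highest of its group on both days for Nrip1, and the groups did not overlap. The receptors Rara, Rarg and Rxra changed by -0.15, -0.22 and 0.07, and none of them passed the test.

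Cyp26a1 and Rarb are also the only named genes whose promoter window held a match to an RA response element. RARs bind direct repeats of a 6-base element, so the windows were searched on both strands for any of 4 elements in direct repeat with 1, 2 or 5 bases between them. The elements were spelled AGGTCA in its consensus form, GGGTCA as a variant that the consensus allows, AGTTCA as another, and lastly GGTTCA as the remaining form. The element of Rarb is textbook knowledge and is made of the last 2 forms, so the search was bound to find it and its match is no result. Of the genes that rose, 354 had a window, and 6 of them (1.69%) held a repeat of any of the 3 spacings. The share was 186 of 27025 among all genes with a window (0.688%). The 6 include Rarb, whose match was bound to be found, and Cyp26a1. The match of Cyp26a1 is made of AGTTCA on both sides, a form that the element of Rarb also holds. Both genes were known RA targets before the search, so the share among the genes that rose is no independent result. The difference between the shares was not tested. A window is the RefSeq sequence from 250 bases before to 50 after a start site, in build GRCm38.p6. Of the 110 named genes, 76 had a window. The repeat with 5 bases between its elements was found in 32 of 32851 windows (0.0974%), and in both genes below, where the match stands in capitals. The repeats with 1 and 2 bases between their elements were found in 73 (0.222%) and 88 windows (0.268%), and no window held repeats of more than 1 spacing. A match is a description of the letters and does not show that a receptor binds there. In Rarb the match lies on the gene's own strand and begins 53 bases before the start. In Cyp26a1 the match lies on the opposite strand and its first base, as printed, is 32 bases before the start. The Rarb window is chr14:16575427-16575726 on the minus strand and that of Cyp26a1 chr19:37697558-37697857 on the plus strand, both printed 5′ to 3′ on the gene's strand.
Rarb promoter window: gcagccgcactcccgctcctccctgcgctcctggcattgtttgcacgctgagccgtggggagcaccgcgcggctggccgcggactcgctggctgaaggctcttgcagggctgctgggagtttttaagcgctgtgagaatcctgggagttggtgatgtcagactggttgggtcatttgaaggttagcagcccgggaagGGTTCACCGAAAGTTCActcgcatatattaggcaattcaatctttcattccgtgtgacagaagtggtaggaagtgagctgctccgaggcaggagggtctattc
Cyp26a1 promoter window: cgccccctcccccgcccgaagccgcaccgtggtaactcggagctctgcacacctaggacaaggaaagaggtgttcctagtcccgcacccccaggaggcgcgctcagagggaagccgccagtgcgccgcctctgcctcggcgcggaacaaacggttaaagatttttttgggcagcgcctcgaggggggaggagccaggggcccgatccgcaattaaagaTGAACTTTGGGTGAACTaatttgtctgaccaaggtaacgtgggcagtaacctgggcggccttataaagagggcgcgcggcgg

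Hox genes, which give body segments their identity along the head-to-tail axis, rose in a large share. Of 36 measured Hox genes 17 rose and none fell (47.2%, against 2.05% of all genes that rose), with a median change of 0.26. All 17 lay in the HoxA and HoxB clusters, where 8 of 9 and 9 of 10 measured genes rose. None of the measured HoxC and HoxD genes passed the test. Hoxa5 read 3.28, 3.73 and 3.86 without RA and 7.71, 7.23 and 7.58 with RA, a rise of 3.89 ± 0.19 or 14.8-fold (adjusted p = 1.46e-07). Hoxb1, the hindbrain gene with a well-known RA response element, read 4.97, 5.01 and 5.22 without RA and 9.33, 8.51 and 8.51 with RA, a rise of 3.72 ± 0.22. In both genes the groups were far apart, and for Hoxb1 array 1 was the highest of the arrays with RA. Along each cluster the size of the rise varied. In HoxA it was 2.13 ± 0.20 for Hoxa2, 1.45 ± 0.20 for Hoxa3, 1.73 ± 0.15 for Hoxa4, 0.86 ± 0.14 for Hoxa6 and 0.93 ± 0.17 for Hoxa7. In HoxB it was 2.32 ± 0.15 for Hoxb2, 1.51 ± 0.17 for Hoxb3, 1.84 ± 0.20 for Hoxb4, 1.91 ± 0.17 for Hoxb6, 0.998 ± 0.177 for Hoxb7, 1.497 ± 0.178 for Hoxb8, 1.12 ± 0.13 for Hoxb9 and 0.67 ± 0.12 for Hoxb13. Hoxb5 (0.255 ± 0.149) and Hoxa13 (0.16 ± 0.19) were the members of these clusters that did not pass. Hoxa9 (0.63) lost its call without no-RA array 1, RA array 2 or RA array 3 (highest adjusted p = 0.086), and Hoxa10 (0.52) without any of the 6 arrays (highest adjusted p = 0.161). The fits without 1 array called 15 or 16 Hox genes, and the fit without both arrays numbered 1 called 14.

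**Figure D2:**
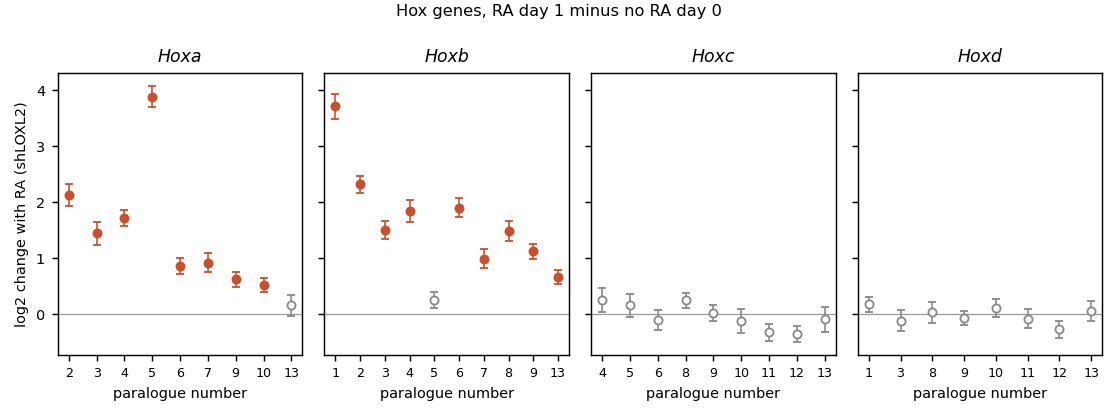
Change in log2 signal with RA in shLOXL2 cells (vertical axis) for the 36 measured Hox genes, in 4 panels by cluster and ordered by paralogue number. Points are the estimates from 3 arrays in each group, bars the standard errors, and filled points passed the threshold. The filled points are the 8 in HoxA and 9 in HoxB, led by Hoxa5 at 3.89 and Hoxb1 at 3.72.

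Some partners and upstream regulators of Hox proteins rose. Of 13 measured genes of the TALE homeodomain cofactors and the Cdx family 6 rose and 1 fell, against 2.05% and 1.41% of all genes, with 5 negative changes and a median of 0.50. With the replicate block 7 rose. Meis2 and Meis1, cofactors that bind DNA beside Hox proteins, rose by 2.32 ± 0.22 and 1.86 ± 0.13. Meis1 read 4.82, 4.48 and 4.63 without RA and 6.70, 6.35 and 6.46 with RA. Cdx1, a caudal-type factor that acts upstream of Hox genes, read 4.79, 4.89 and 5.10 without RA and 6.94, 7.36 and 7.14 with RA, a rise of 2.22 ± 0.16. Neither gene's groups overlapped. Pbx2 rose by 0.60 ± 0.12, a call lost without no-RA array 3 (adjusted p = 0.0586). Pknox2 (0.9999) lost its call without no-RA array 1 or 2 or RA array 1 (highest adjusted p = 0.0689), and Pbx3 (0.50) in all fits but that without RA array 2 (highest adjusted p = 0.167). Tgif1, which fell (-0.67), lost its call without no-RA array 2 or 3 or RA array 1 or 3 (highest adjusted p = 0.114). The fits without 1 array called 4 to 6 rises in the list. Cdx2 changed by 0.64 ± 0.19 (adjusted p = 0.0867, and 0.0231 with the block).

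Of 21 other genes known to answer RA, mostly regulators, 6 rose and none fell, and the median change was 0.28; the block gave 7 rises. Stra8, which germ cells switch on in reply to RA before meiosis, had the largest rise of all genes. It read 4.43, 4.64 and 4.61 without RA and 9.58, 9.22 and 9.51 with RA, a rise of 4.88 ± 0.15 or 29.4-fold (adjusted p = 1.16e-09). Foxa1, a pioneer factor that opens chromatin, rose by 2.01 ± 0.21 and the zinc finger factor Zfp703 by 1.73 ± 0.18. Tshz1, a teashirt zinc finger factor, rose by 1.47 ± 0.16. Plat, the tissue-type plasminogen activator, rose by 1.14 ± 0.18. Nr6a1, the orphan nuclear receptor GCNF, which represses Pou5f1 in differentiating cells, rose by 0.75 ± 0.11, from 6.07, 6.12 and 6.08 to 6.82, 6.83 and 6.86. The arrays of each group differed by less than 0.1 for Nr6a1, well under the change. Outside these lists, the largest rises were those of Aqp3, a water and glycerol channel, by 2.92 ± 0.16, Greb1l, a gene needed for kidney development, by 2.67 ± 0.20, Pmp22, a peripheral myelin protein, by 2.42 ± 0.19, and Prtg, a protein of the immunoglobulin superfamily in the early neural plate, by 2.25 ± 0.21.

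Germline and meiosis genes mostly had positive changes. Of 31 measured genes 5 rose (16.1%, against 2.05% of all genes) and none fell, 26 had a positive change, and the median was 0.24. With the replicate block 7 rose. Beside Stra8, Rec8, the meiotic cohesin subunit, rose by 1.41 ± 0.16, from 5.58, 5.99 and 5.80 to 7.13, 7.29 and 7.19. Taf7l, a germ-cell form of a TFIID subunit, rose by 1.26 ± 0.21 and Sohlh2, a germ-cell transcription factor, by 1.05 ± 0.18. Mov10l1, a helicase of the piRNA pathway, rose by 0.75 ± 0.11. Sycp1 (0.58) did not pass the test, and Dazl (1.13) passed only with the block (adjusted p = 0.0881 without and 0.00859 with it). Of 13 genes of the 2-cell-like state, a rare state of ES cells with transcripts of the early embryo, 1 rose, Calcoco2 by 1.90 ± 0.21, and 12 had a positive change, with a median of 0.62. With the replicate block 7 of the 13 rose. Zscan4c (1.14) and Zscan4d (0.82) belong to a family of near-identical copies whose probes cannot be told apart, and both passed only with the block (adjusted p = 0.000591 and 0.00799).

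The factors that hold ES cells in the naive state fell in part. Of 20 measured genes 6 fell and 2 rose (40.0%, against 3.46% of all genes), with a median change of -0.35. With the replicate block 9 fell, against 2.88% of all genes. In bulk RNA, fewer cells expressing a gene and less RNA per cell cannot be told apart. Nr0b1 (Dax1), an orphan nuclear receptor of the naive network, read 10.24, 10.46 and 10.34 without RA and 9.05, 9.09 and 9.02 with RA, a fall of 1.29 on the log2 scale with a standard error of 0.13 (adjusted p = 7.6e-05). Nr5a2 (Lrh1), which binds the Pou5f1 promoter, read 8.244, 8.002 and 8.011 without RA and 6.73, 7.05 and 6.89 with RA, a change of -1.19 ± 0.13. The arrays with RA were all below those without for both genes. Tcl1, a coactivator of the kinase Akt, changed by -1.44 ± 0.22, and Fgf4 by -0.86 ± 0.14. Prdm14 (-0.77) held in the fits without no-RA array 1 or RA array 2 but not in the other 4 (highest adjusted p = 0.164), and Zfp42 (-0.52) in none of the 6 (highest adjusted p = 0.172). Nanog read 10.21, 9.76 and 9.57 without RA and 10.21, 9.62 and 9.59 with RA, and its change of -0.04 ± 0.23 was smaller than the spread within each group. Pecam1 rose by 0.88 ± 0.16. Tbx3 (0.69) rose too, but held only in the fit without no-RA array 3 (highest adjusted p = 0.0958). Without both arrays numbered 1 the list had 5 falls and no rise.

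Of 17 genes of the general pluripotency network 5 fell and 1 rose (35.3%, against 3.46% of all genes), and the median change was -0.26. The block gave 6 falls. Mycn, the N-Myc proto-oncogene, read 8.04, 7.82 and 7.59 without RA and 5.44, 5.76 and 5.93 with RA, a change of -2.11 ± 0.17 or 4.33-fold lower. Foxd3, a forkhead repressor needed to keep ES cells undifferentiated, read 7.61, 7.55 and 7.60 without RA and 5.61, 5.66 and 5.71 with RA, a change of -1.93 ± 0.16. The groups were clearly separate for both genes. Zscan10 changed by -1.22 ± 0.13 and Utf1, a chromatin factor of undifferentiated cells, by -0.85 ± 0.16. Pou5f1 (Oct4), the central factor of the network, read 7.87, 7.81 and 7.87 without RA and 7.08, 7.24 and 7.35 with RA. This fall of 0.63 on the log2 scale (adjusted p = 0.00625) was not called without both arrays numbered 1 (adjusted p = 0.0642). Sox2 changed by -0.50 ± 0.17 (adjusted p = 0.159). Dppa2 rose by 0.59, a call lost without no-RA array 2 or 3 or RA array 1 or 3 (highest adjusted p = 0.075). Of 14 measured long noncoding RNAs of the Platr group, named for their link to pluripotency, 3 fell, with changes of -1.53 ± 0.17 for Platr6, -1.16 ± 0.17 for Platr8 and -0.98 ± 0.17 for Platr10 and with a group median of -0.23, and 5 fell with the block. These RNAs were chosen after their values were seen.

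A part of the genes of the formative and primed epiblast, the stages that follow the naive state, fell. Of 17 measured genes 7 fell, against 1.41% of all genes, none rose and 5 had a positive change, with a median of -0.40, and with the replicate block 9 fell. Otx2, a factor of the anterior epiblast, read 6.05, 6.21 and 5.99 without RA and 4.79, 4.64 and 4.66 with RA, a change of -1.39 ± 0.14. Lef1, a transcription factor of the Wnt pathway, changed by -1.90 ± 0.22, and Grhl2, a grainyhead factor of epithelial enhancers, by -1.60 ± 0.15. Lef1 was highest in array 1 of each group, and its groups did not overlap. Dnmt3b, a DNA methyltransferase that sets new methylation marks, changed by -0.96 ± 0.17, with an adjusted p of 0.0575 without both arrays numbered 1. Dnmt3l (-1.04) lost its call without no-RA array 1, RA array 2 or RA array 3 (highest adjusted p = 0.0801). Etv5 (-0.71) lost it without no-RA array 2 or 3 or RA array 1 (highest adjusted p = 0.0624), and Fgf15 (-0.61) without array 2 or 3 of either group (highest adjusted p = 0.0802).

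The members of the signalling pathways moved in both directions. In the list of FGF-ERK feedback and immediate early genes 5 of 30 fell and 1 rose (median -0.10), and with the replicate block 7 fell and 4 rose. Egr1, an immediate early gene, read 6.52, 6.95 and 6.86 without RA and 5.34, 5.61 and 5.54 with RA, a change of -1.28 ± 0.15. The ligands Fgf17 and Fgf4 changed by -1.26 ± 0.21 and -0.86 ± 0.14, while the receptor Fgfr2 rose by 1.26 ± 0.16. Of 22 measured genes with an Fgf symbol 3 fell and none rose. Dusp9, an ERK phosphatase outside the naming rule and chosen after its values were seen, rose by 1.81 ± 0.19. In the LIF and STAT3 list 4 of 15 fell and 2 rose (median -0.12). Pim1, a survival kinase, rose by 0.98 ± 0.12, from 8.99, 9.04 and 9.19 to 10.05, 10.06 and 10.05, and its relative Pim2 changed by -1.10 ± 0.16. Lifr, the receptor subunit for LIF, changed by -0.85 ± 0.16, a call lost without RA array 3 (adjusted p = 0.0529). The calls of Jak2 (1.13) and Pim3 (-0.60) were lost without no-RA array 2 or 3 or RA array 1 or 3 (highest adjusted p = 0.0991 and 0.139), and that of the gp130 gene Il6st (-0.45) without any of the 6 arrays (highest adjusted p = 0.146).

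In the Wnt pathway 5 of 48 genes fell and 3 rose (16.7%, against 3.46% of all genes), with a median change of 0.07. The block gave 5 falls and 7 rises. Both Wls and Porcn act in Wnt secretion. Wls, the carrier of Wnt proteins, rose by 1.36 ± 0.25 and Porcn, which attaches their lipid, by 0.82 ± 0.12. Notum, which removes that lipid, changed by -1.29 ± 0.15, from 7.33, 7.47 and 7.37 to 6.10, 6.25 and 5.95. The receptor Fzd5 changed by -0.85 ± 0.14, and Lef1 fell as given above. Sfrp1 (-0.996) lost its call without array 2 or 3 of either group (highest adjusted p = 0.0777), Lgr4 (-0.78) without no-RA array 1 or 2 or RA array 2 or 3 (highest adjusted p = 0.0904), and Fzd4 (0.55) in all fits but that without no-RA array 3 (highest adjusted p = 0.117). In the Nodal and TGF-beta list 2 of 26 rose and none fell (7.69%, against 3.46% of all genes, median 0.003). The Nodal antagonist Lefty1 rose by 1.67 ± 0.25 and the Smad corepressor Ski by 0.63 ± 0.12. The block gave 5 rises and 2 falls there. Of 25 genes of the BMP pathway, the inhibitory Smad6 rose by 1.21 ± 0.12, the list's median change was 0.22, and the block gave 5 rises and 2 falls. The ligand Bmp4 (-1.45) lost its call without no-RA array 1 or 2 or RA array 2 or 3 (highest adjusted p = 0.0769), and Fst (-0.57) in all fits but that without RA array 2 (highest adjusted p = 0.18). Of 25 Notch pathway genes 1 fell (4.0%, against 3.46% of all genes called), the ligand Jag1, with a change of -1.12 ± 0.21. The block added 2 rises. In the Hedgehog list of 14 genes Hhip (0.95) rose, a call that held only without no-RA array 3, and Gli2 (-0.70) fell, a call lost without no-RA array 2 or 3 or RA array 1 or 3 (highest adjusted p = 0.126 for each), and the block gave 4 rises and 2 falls.

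Some markers of differentiated lineages changed at day 1. The share called was 7.14% for neural, 4.17% for primitive endoderm and 9.09% for streak and mesoderm genes, against 3.46% of all genes. The block added 1 fall to the neural and 1 rise to the primitive endoderm list. Of 28 neural progenitor genes Msi1, an RNA-binding protein, rose by 0.94 ± 0.13, and Ncam1 (-0.58) fell only in the fit of all arrays and the fit without no-RA array 1 (highest adjusted p = 0.195). Pax6 changed by 0.38, Sox1 by 0.57 and Nes by 0.05, none past the threshold. Of 24 primitive endoderm genes 1 rose: Gata6, which specifies that lineage, read 6.61, 6.59 and 6.54 without RA and 8.26, 8.66 and 8.81 with RA, a rise of 1.99 ± 0.24. The lineage's other factors Gata4, Sox17, Sox7 and Foxa2 changed by 0.45, 0.29, 0.31 and -0.01 and did not pass. Of 22 primitive streak and mesoderm genes Cdx1 rose as given above and Pdgfrb, a growth factor receptor of mesenchymal cells, by 1.27 ± 0.16. None of 17 trophectoderm genes and none of 20 regulators and markers of the epithelial-to-mesenchymal transition passed, although with the block 2 rose and 1 fell in each. The lists' median changes were -0.02 for neural, -0.001 for primitive endoderm, 0.04 for streak and mesoderm, 0.08 for trophectoderm and 0.13 for the transition, against -0.01 over all genes.

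Adhesion and epithelial genes moved both ways. Of 28 epithelial genes 4 fell and 2 rose (21.4%, against 3.46% of all genes), with a median change of -0.27. The replicate block gave 6 falls and 2 rises. Beside Grhl2, the splicing regulator Esrp1 changed by -1.23 ± 0.18, from 6.59, 6.37 and 6.32 to 5.09, 5.27 and 5.21. The desmosome genes Dsc2 and Dsp rose by 1.65 ± 0.17 and 0.95 ± 0.16. Dsp had an adjusted p of 0.0639 without both arrays numbered 1. The GTPase Rab25 (-1.11) lost its call without no-RA array 2 or 3 (highest adjusted p = 0.0577), and Jup (-0.77), another desmosome gene, without those or without RA array 1 or 3 (highest adjusted p = 0.0811). The fits without 1 array gave 2 to 6 falls in this list. The P-cadherin gene Cdh3 changed by -1.25 ± 0.15 and was the only one of 23 cadherin genes called, while the block added 1 rise. Among 27 integrins Itga3 rose by 1.19 ± 0.13 and Itgb7 changed by -1.01 ± 0.15, and the block gave 1 rise and 4 falls.

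**Figure D3:**
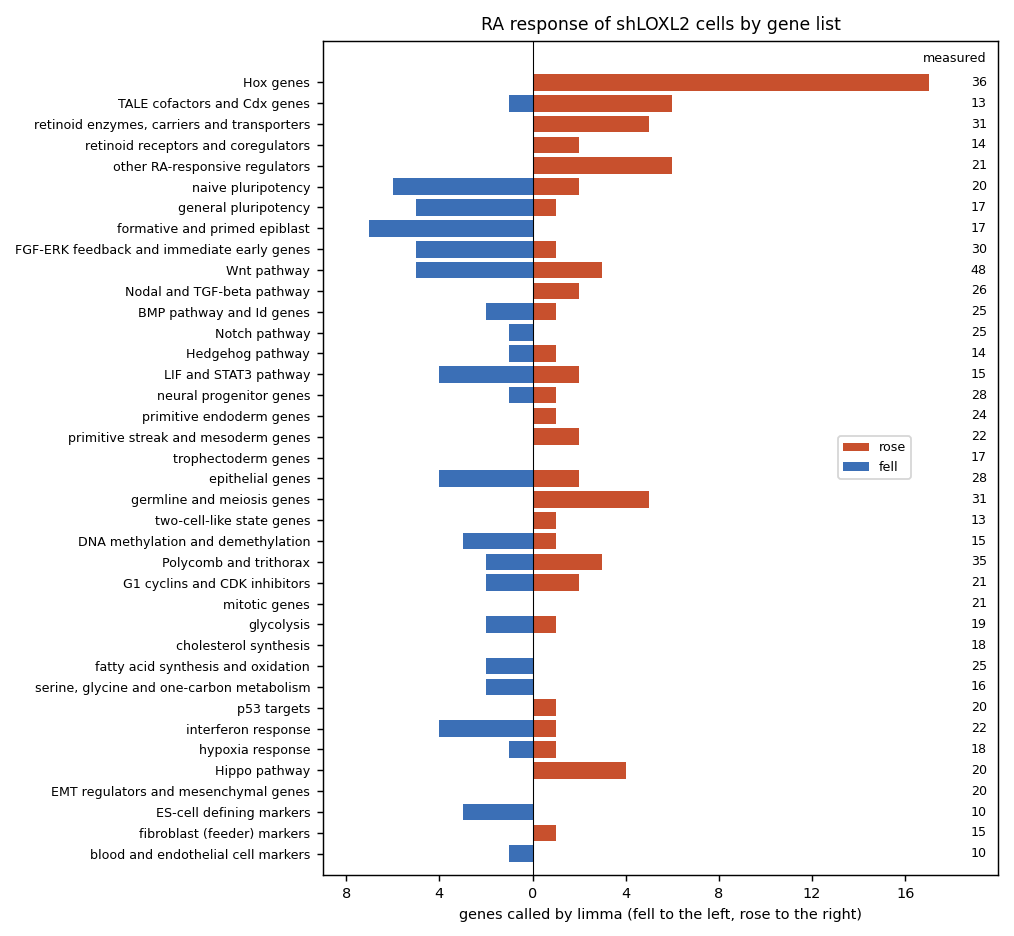
Number of genes of each list that fell (to the left) and rose (to the right) with RA in shLOXL2 cells, with the number measured at the right edge. The bars of the Hox genes reach 17 rises with no fall, those of the formative and primed epiblast 7 falls with no rise, and mitotic and cholesterol synthesis genes have no bar.

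The cell cycle lists gave calls among G1 genes and none among mitotic genes. None of 21 mitotic genes passed the test in the main or the blocked fit, with a median change of 0.08 and a range of -0.21 to 0.43. With 3.46% of all genes called, a list of this size may hold no call. In the list of 21 G1 cyclins, kinases and inhibitors 2 rose and 2 fell, and the block gave 4 rises and 2 falls. The D-type cyclins went opposite ways. Ccnd2 read 6.73, 6.64 and 6.35 without RA and 7.92, 7.63 and 7.67 with RA, a rise of 1.17 ± 0.19, and Ccnd1 read 8.65, 9.02 and 9.01 and then 7.38, 8.06 and 7.92, a change of -1.10 ± 0.18. Neither gene's groups overlapped. Cdkn2d (0.58) and Cdk6 (-0.72) lost their calls without no-RA array 1 or 2 or RA array 2 or 3, with highest adjusted p values of 0.0789 and 0.0866. Of 20 p53 targets the kinase Plk3 rose by 0.91 ± 0.15 and none fell (5.0%, close to the 3.46% of all genes).

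In each metabolic list at most 3 genes were called without the block. Slc27a2, which imports and activates very long-chain fatty acids, read 7.50, 7.17 and 7.21 without RA and 5.30, 4.84 and 4.75 with RA, a change of -2.33 ± 0.18. Acsl5, another acyl-CoA synthetase, changed by -0.85 ± 0.15, and no other gene of the 25 in the fatty acid list was called (median 0.06), though the block added 3 rises. The glucose transporter Slc2a1 rose by 0.80 ± 0.12, while 2 of 19 genes of the glycolysis list, Pfkm (-0.67) and Pdk1 (-0.61), fell, and 3 did with the block. Pfkm lost its call without no-RA array 2 or 3 or RA array 1 or 3 (highest adjusted p = 0.0983), and Pdk1 without any of the 6 arrays (highest adjusted p = 0.144). Fbp1 and Fbp2, the fructose bisphosphatases of glucose synthesis, chosen after their values were seen, rose by 1.44 ± 0.12 and 1.79 ± 0.22. Of 16 genes of serine, glycine and one-carbon metabolism Gldc (-0.84) and Shmt1 (-0.52) fell. Gldc lost its call without no-RA array 2 or 3 or RA array 1 or 3 (highest adjusted p = 0.141), and Shmt1 without no-RA array 2 or RA array 1 or 3 (highest adjusted p = 0.0849). None of 18 cholesterol synthesis genes passed in the main or the blocked fit, and their changes lay between -0.30 and 0.33. Of 328 measured solute carriers 11 rose and 12 fell (7.01%, against 3.46% of all genes). The block gave 20 rises and 22 falls, and the fits without 1 array gave 6 to 10 rises and 6 to 14 falls. Slc7a3, a cationic amino acid transporter, read 9.02, 9.11 and 9.07 without RA and 7.34, 7.60 and 7.39 with RA, a change of -1.62 ± 0.13, and the vesicular nucleotide transporter Slc17a9 changed by -1.70 ± 0.19.

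Of 22 interferon response genes 4 fell and 1 rose (22.7%, against 3.46% of all genes), with a median change of -0.13. The block gave 6 falls and 2 rises. Ddx58 (RIG-I), a sensor of viral RNA, read 6.78, 6.80 and 6.84 without RA and 4.84, 5.05 and 5.16 with RA, a change of -1.79 ± 0.12. Ifitm3, a membrane protein that restricts virus entry, changed by -0.94 ± 0.16, and the class I histocompatibility gene H2-K1 rose by 0.72 ± 0.12. Ifitm1 (-0.90) lost its call without no-RA array 2 or 3 or RA array 1 or 3 (highest adjusted p = 0.196), and Bst2 (-0.59) in all fits but that without RA array 1 (highest adjusted p = 0.139). In the DNA methylation list of 15 genes, 3 fell and 1 rose (median -0.14), and the block gave 5 falls and 2 rises. Hmces, which shields abasic sites in DNA, read 7.66, 7.94 and 7.83 without RA and 5.66, 6.24 and 5.95 with RA, a change of -1.86 ± 0.16. The other falls were Dnmt3b and Dnmt3l, given above, and the rise of Mbd2 (0.54) held only in the fit without RA array 1 (highest adjusted p = 0.129). Of 35 Polycomb and trithorax genes 3 rose and 2 fell (5 and 3 with the block), and each of these calls was lost in at least 4 of the 6 fits without 1 array. The 4 rises among 20 Hippo pathway genes (Tead1 0.86, Ccn2 0.83, Amotl1 0.57 and Ccn1 0.52) were likewise unsteady: 0 to 2 remained rises in the fits without 1 array, and none with the arrays centred on their medians or without both arrays numbered 1, while the block gave 6 rises.

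The largest fall of all genes was that of Klk1, a tissue kallikrein, which is a serine protease. It read 6.20, 6.33 and 6.27 without RA and 3.13, 2.79 and 2.75 with RA, a change of -3.38 ± 0.18 or 10.4-fold lower (adjusted p = 2.35e-07). Of 23 measured kallikreins 2 fell and none rose. Among the largest falls were also Tgm3, a transglutaminase (-1.99 ± 0.19), Upk1a, a uroplakin of the bladder lining (-1.80 ± 0.19), and Ntn1, the secreted guidance cue netrin (-1.61 ± 0.15). In other guidance families some members were called. Of 21 Eph receptors and ephrins 4 rose and 2 fell, with Efnb1 at 1.55 ± 0.15 and Epha4 at -0.94 ± 0.18, and 1 to 3 rose and 1 or 2 fell in the fits without 1 array. Of 29 semaphorins and plexins 3 rose, led by Sema3e at 1.86 ± 0.21, and none fell. Centring the arrays left 1 rise, and the block gave 5. Among 23 genes with a nuclear receptor symbol Nr6a1 rose and 4 fell: Nr0b1, Nr5a2, the clock repressor Nr1d1 (-0.91 ± 0.12) and the immediate early gene Nr4a1 (-0.67 ± 0.11). The block added 1 rise. All 5 of these calls held in each fit without 1 array, without both arrays numbered 1 and after centring. In the family of CCCH zinc finger proteins that destabilise mRNA, Zfp36l3 rose by 1.69 ± 0.24, Zfp36l1 changed by -0.82 ± 0.14 and Zfp36l2 by -0.63 ± 0.15, the last a call lost without any of the 6 arrays (highest adjusted p = 0.138). No member was called among 65 cytosolic and 71 mitochondrial ribosomal protein genes, 39 proteasome genes, 44 collagens, 31 claudins or 19 Sox genes. With the block 1 mitochondrial ribosomal protein gene and 1 claudin fell and 1 collagen rose.

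Few microRNA genes were called. Of 478 measured, 10 fell and 1 rose (2.30%, against 3.46% of all genes), with a median change of -0.08, and the replicate block gave 23 falls and 5 rises. The arrays read transcripts of the gene, not the mature microRNA. These genes were outside the naming rule and were chosen after their values were seen. Of the 11, 10 had mature sequences in RefSeq, 15 in all, and no 2 of the 15 shared a seed. The sequences of the 3 genes with a sequence whose calls held in every fit without 1 array, and of members of the miR-17 and miR-290 clusters, are given with the seed, bases 2 to 8, in capitals.
mmu-miR-453: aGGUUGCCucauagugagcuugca
mmu-miR-382-5p: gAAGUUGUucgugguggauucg
mmu-miR-382-3p: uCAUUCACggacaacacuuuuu
mmu-miR-135b-3p: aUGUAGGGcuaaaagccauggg
mmu-miR-18a-5p: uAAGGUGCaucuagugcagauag
mmu-miR-19a-3p: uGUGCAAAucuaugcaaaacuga
mmu-miR-290a-3p: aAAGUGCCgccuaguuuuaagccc
Mir453 read 8.01, 7.65 and 7.60 without RA and 6.83, 6.12 and 6.21 with RA, a change of -1.36 ± 0.22. Mir382 changed by -0.95 ± 0.18, with an adjusted p of 0.0647 without both arrays numbered 1, and Mir135b by -1.19 ± 0.16. Mir1949, which had no sequence in the table, changed by -0.84 ± 0.15. Mir290a (-0.60), from the cluster of the most abundant microRNAs of ES cells, and Mir18 (-0.70) and Mir19a (-0.82), from the miR-17 cluster, were called. Mir290a lost the call without no-RA array 1 or 3 or RA array 2 or 3 (highest adjusted p = 0.127), Mir18 without array 2 or 3 of either group (0.204), and Mir19a in all fits but that without RA array 1 (0.139). All 4 measured genes of the miR-17 cluster and all 5 of the miR-302 cluster had negative changes, as had 314 of the 478 microRNA genes. None of the miR-302 cluster passed, nor did Mir17 (-0.24) and Mir20a (-0.23) of the miR-17 cluster.

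Mir453 and Mir382 lie in the imprinted region between Dlk1 and Dio3, which carries a long array of microRNA and small nucleolar RNA genes expressed from the maternal chromosome. Of 55 measured genes in that region 7 fell and none rose (12.7%, against 1.41% of all genes that fell). A negative change was seen for 49, and the median was -0.35. Among the 43 microRNA genes of the region 39 changes were negative, and among the 435 elsewhere 275 were. The region was outside the gene lists and was taken up after its values were seen. Mir453 and Mir382 are among the 7, so these counts are descriptions. The replicate block gave 16 falls and 1 rise, and the fit without both arrays numbered 1 gave 6 falls. Of 43 microRNA genes there 4 fell (11 with the block), and of 5 small nucleolar RNA genes 2 fell (4 with the block), AF357355 with a change of -1.14 ± 0.15 and AF357426 with one of -1.03 ± 0.14. AF357355 read 9.53, 9.76 and 9.62 without RA and 8.65, 8.54 and 8.28 with RA, so that its groups were apart. Rian, the noncoding host of small nucleolar RNAs, read 8.88, 8.33 and 8.09 without RA and 7.84, 7.05 and 7.02 with RA (-1.13 ± 0.25), a call lost without no-RA array 1 or 2 or RA array 2 or 3 (highest adjusted p = 0.107). Mir377 (-0.84) lost its call without no-RA array 3 or RA array 2 or 3 (highest adjusted p = 0.0721), and Mir487b (-0.75) without those or no-RA array 1 (highest adjusted p = 0.157). The other noncoding transcript Meg3 (-0.36) did not pass, and the protein-coding Dlk1 (0.56) passed only with the block (adjusted p = 0.193 without and 0.0135 with it). Members of the region share host transcripts and are not independent of each other.

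**Figure D4:**
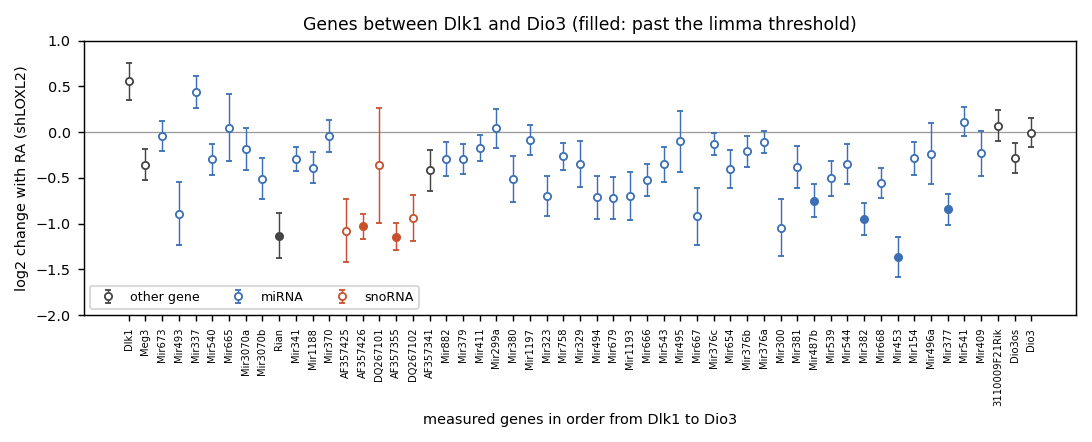
Change in log2 signal with RA in shLOXL2 cells (vertical axis) for the 55 measured genes from Dlk1 to Dio3, in their order along the chromosome. Points are estimates from 3 arrays in each group, bars standard errors, colours the kind of gene, and filled points passed the threshold. The points lie below 0 for 49 genes, and the lowest is Mir453 at -1.36.

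The control-hairpin cells were treated in the same way, with arrays of their own at both times, and allowed the difference between the responses to be tested. In those cells 943 genes (4.25%) changed with RA, 480 up (2.16%) and 463 down (2.09%). No difference in response between shLOXL2 and shCT cells passed the threshold in any of the 22180 genes (0.0%). In limma the adjusted p was 1 for every gene, and 652 genes had an unadjusted p under 0.05. With 3 arrays in each group a difference may have gone undetected. The replicate block gave no gene either, with 1228 at an unadjusted p under 0.05. Among 22180 genes many pass that unadjusted threshold where no response differs, so neither count shows a difference. Of the 768 genes called in shLOXL2 cells, 764 changed in the same direction in shCT cells and 557 were called there too. The remaining 211 were not called in shCT cells, and 207 of them had the same sign there. The named genes with the smallest p for the difference were Klk1, Egr1, Khdc1a, Tmem229b-ps and Hoxa6. Klk1 changed by -3.38 in shLOXL2 and by -2.46 in shCT cells, and Egr1 by -1.28 and -2.12. Hoxa6 rose by 0.86 and 1.51, and Tmem229b-ps, a pseudogene, by 1.59 with shLOXL2 against 0.64 with shCT. Khdc1a changed by -0.63 and 0.03, the former a call lost without no-RA array 2 or 3 or RA array 2 or 3 (highest adjusted p = 0.0991). Hox genes rose in both, with 17 called in shLOXL2 and 19 in shCT cells and median changes of 0.26 and 0.60, and the Dlk1 to Dio3 region had median changes of -0.35 and -0.58.

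**Figure D5:**
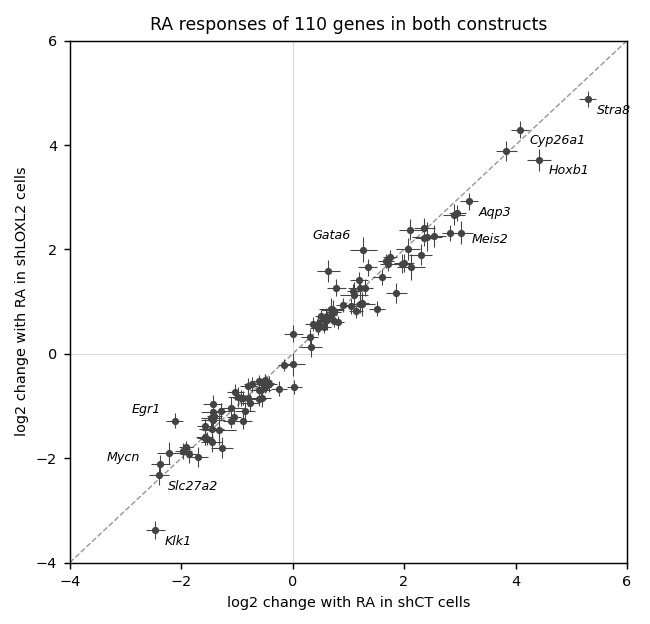
Change in log2 signal with RA in shCT cells (horizontal axis) and in shLOXL2 cells (vertical axis) for the 110 named genes. Points are estimates from 3 arrays in each group, bars standard errors, and the dashed line marks equal change. The points lie along the line from Klk1 (-2.46 and -3.38) to Stra8 (5.29 and 4.88), and no gene's distance from it passed the test.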

How the data were processed

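RNA of 12 samples (4 groups of 3) was measured on 1-colour Affymetrix arrays from 100 ng of total RNA. The authors deposited log2 signals per transcript cluster. The submitters' processing notes list RMA, limma and R 3.1.1, with no role given, and a genome build is not given in the sources used here. RMA, where used, compresses the changes of dim probes, no detection p or background value was used, and the number of arrays limits the precision. Of 41345 clusters, 23521 carry 1 gene name in the platform annotation, 1814 several and 16010 none; 23328 of those with 1 name matched RefSeq. Clusters with 1 gene were kept, and for 1082 genes with several clusters the brightest by its mean over all arrays was used, which left 22180 genes. Means of the 4 groups were fitted to all 12 arrays with limma 3.58.1 in R 4.3.3 (8 residual degrees of freedom and 5.38 from the prior), without a block and with Benjamini-Hochberg adjustment at 0.05. The script was tested on simulated data with independent noise in every array and gene. That test had no effect shared by arrays of the same number, so it does not cover such an effect in these data.

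By the rule that each same-number correlation exceed 0.1, the labels' array numbers were taken to pair the shLOXL2 samples: deviations of same-numbered arrays from their group means correlated at 0.558, 0.248 and 0.216 (in shCT cells at 0.363, 0.039 and 0.631). Differently numbered shLOXL2 arrays correlated at -0.463 to 0.369, the highest being no-RA array 3 with RA array 2, and the labels do not say that a number marks a shared culture. The number was therefore also fitted as a block within each hairpin. That fit paired the shCT arrays too, although their 0.039 falls short of the rule. The pairing was read from these same values, so calls made only with the block depend on it. Blocked counts stand beside the list counts they change. Other alternatives were centring, quantile normalization, only the 6 shLOXL2 arrays, a filter on dim genes, a variance trend, the mean of a gene's clusters and leaving out each array. Genes were named by rule: the 12 largest rises and the 12 largest falls among called genes whose arrays did not overlap (predicted or numbered symbols, small RNAs and odour receptors left out), up to 4 called members of each list with the smallest p or, where none was called, the member with the smallest p, Loxl2, the main retinoid enzyme and carrier genes, and the 5 called genes with the smallest p for the difference between hairpins. Other members of lists and families were chosen after their values were seen. The members and lists were chosen with earlier results of these data known, so their counts are descriptions. Promoter and microRNA sequences are RefSeq's, build GRCm38.p6.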

Additional observations from a re-analysis of the deposited data

How the results depend on the processing

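The number of genes that changed with RA in shLOXL2 cells was 768. With the array number as a replicate block it was 1624, and all 768 were among them. The fits that left out 1 array gave 444 to 804 genes, the lowest without RA array 3 and the highest without no-RA array 1. Leaving out both arrays numbered 1, chosen after seeing the data, gave 488. The fit of only the 6 shLOXL2 arrays gave 580, and the other settings (centring, quantile normalization, the filter on dim genes, the variance trend and the mean of a gene's clusters) gave 747 to 854. The difference between the hairpins had no gene under any setting run, and the fit of only the 6 arrays gives no such test. Of 178 called genes checked one by one, 119 were called in every fit without 1 array, 139 with only the 6 arrays, 169 after centring, 168 after quantile normalization and 136 without both arrays numbered 1, and none changed direction. The block took the call from none of the 178, which follows from its calling all 768 and is no separate check. Of the uncalled genes, Nanog (-0.04) ranged from -0.241 to 0.14 and Crabp1 (-0.20) from -0.439 to 0.009 when 1 array was left out. The cause was not tested. The values limit the reading further: the deposited signals were used with no detection call, so a dim gene that did not pass may be unmeasured, and 3 arrays in a group cannot give an exact p below 0.1 for a single value.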
